A study of Mus musculus with 9 samples.

Results

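A pair of labelled populations of mouse cortical interneurons was compared at postnatal day 5: cells marked by Nkx2.1-CreER, the driver used to label chandelier cells, and cells marked by VIP-Cre, which marks interneurons of the caudal ganglionic eminence. Both lines carried the Ai47 GFP reporter. The Nkx2.1-CreER;Ai47 mice had received tamoxifen at embryonic day 17, and no treatment is given for the VIP-Cre;Ai47 mice. The comparison takes 6 of the 9 libraries of the series, 3 of each line, chosen by genotype. The other 3 libraries, from SOM-Cre;Ai47 mice, entered the fit, where they help to estimate the spread and to decide which genes pass the filter on low counts (10728 genes were tested with all 9 libraries and 9327 with the 6 alone). Each library was made from 150 GFP+ cells picked by hand from dissociated layer 2/3 strips of cingulate and medial prefrontal cortex (ACC and mPFC), so a library averages over every cell type the driver labels there. Whether separate animals gave the libraries of a line is not stated, and the p-values then describe only the spread among these libraries, which may be technical. In such bulk libraries fewer expressing cells and less RNA per cell cannot be told apart.

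Cortical interneurons make the inhibitory transmitter GABA and arise mainly in the medial and caudal ganglionic eminences of the embryonic forebrain. Nkx2-1 specifies the medial lineage and switches on Lhx6, and Prox1, Nr2f2 and Sp8 mark the caudal lineage. Chandelier cells come late from the medial lineage and place their synapses on the axon initial segment of pyramidal cells, whereas many VIP interneurons contact other interneurons.

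The libraries held 8071044 to 12465997 reads in genes, and 8180 to 10927 genes had at least 1 read in a library. Nkx2.1 replicate 2 had the most reads and the fewest genes. With every library sampled down to 6484488 reads, 10217, 7858 and 9171 genes remained in Nkx2.1 replicates 1 to 3. The VIP replicates 1 to 3 then held 9518, 10750 and 10619 genes. Correlations of log2(CPM + 1) over genes, where CPM is the count scaled to the library's reads in genes after TMM scaling, were 0.485 to 0.506 between Nkx2.1 libraries, 0.575 to 0.646 between VIP libraries and 0.403 to 0.492 across the lines. Nkx2.1 replicate 1 had the highest sum of the 6 libraries in the astrocyte, oligodendrocyte lineage and cell division lists. The astrocyte marker list summed to 3814, 720 and 311 CPM in Nkx2.1 replicates 1 to 3, against 474, 430.0 and 319 CPM in VIP replicates 1 to 3, and 7 of its 12 genes were tested. In 1 of the 7 every VIP library lay above every Nkx2.1 library, beside 12.8% of all genes tested. In 0 was it the reverse, beside 7.31% of all genes tested. Slc1a3, a glial glutamate transporter, was at 1649, 293 and 4.89 CPM in the Nkx2.1 line and at 0, 63.2 and 1.89 CPM in the VIP libraries (log2 4.90 ± 2.20, SE, edgeR adjusted p = 0.329). Oligodendrocyte lineage markers summed to 259 to 649 CPM in the Nkx2.1 line against 1.84 to 128 CPM in the VIP line, without overlap. SOM replicates 1 to 3 summed to 155, 339 and 290 CPM. Of the 6 tested oligodendrocyte markers none was called. The Nkx2.1 libraries lay above in 1 of them, beside 7.31% of all genes tested, and the VIP libraries in 0. Cell division genes summed to 560, 41.5 and 51.2 CPM in Nkx2.1 replicates 1 to 3 and to 305, 30.2 and 68.5 CPM in VIP replicates 1 to 3. The excitatory neuron list reached at most 386 CPM in any of the 6 libraries and the microglia list at most 104 CPM. GABAergic genes summed to 3495 to 6471 CPM and to 5639 to 7175 CPM. The part of these other cell types in the differences below was not tested, and results that change without Nkx2.1 replicate 1 are named.

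**Figure D1:**
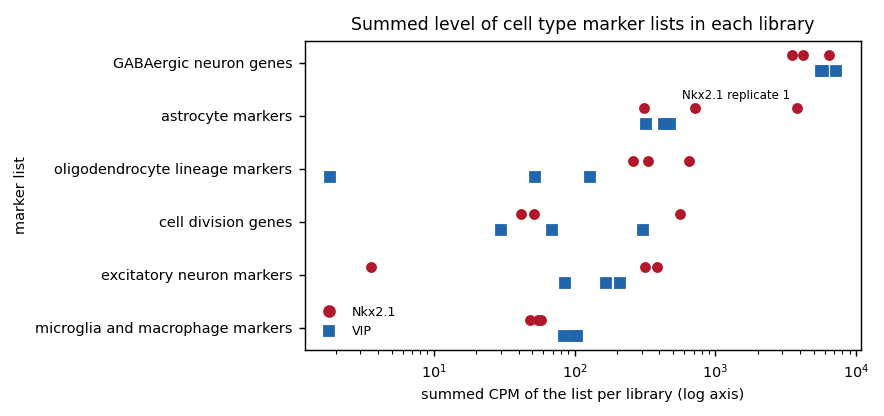
Summed CPM of 6 marker lists (log axis) in each library of the Nkx2.1 line (circles) and the VIP line (squares). The astrocyte sum of Nkx2.1 replicate 1, 3814 CPM, lies above the sums of the other 5 libraries.

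Of 10728 genes tested, 19 were higher (0.177%) and 14 lower (0.13%) in the Nkx2.1 line than in the VIP line at an adjusted p under 0.05 (edgeR quasi-likelihood test, Benjamini-Hochberg), together 0.308%. The highest-ranked of the 19 were Nxph1, Lhx6, Mef2c, Cntnap3 and Dcx. The 14 were led by Fxyd6, Cbln2 and Rn45s. In all 33 the 3 libraries of one line lay above the 3 of the other, as they did in 20.1% of all genes tested (7.31% with the Nkx2.1 line above and 12.8% with the VIP line above). At an unadjusted p under 0.05, 615 genes were higher and 1012 lower. DESeq2 called 462 higher and 800 lower, 12.7% of the 9941 genes to which it gave an adjusted p, among them all 33. The median log2 over all genes tested was 0.0028. A gene that was not called is not shown to be equal in both lines. With 0.308% of all genes called, a list as short as those below would usually hold no call.

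**Figure D2:**
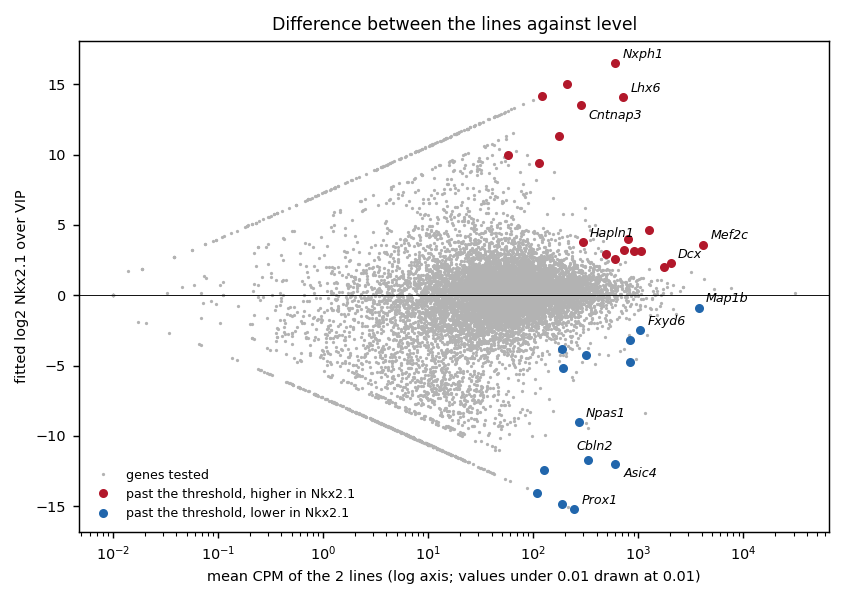
Fitted log2 difference, Nkx2.1 over VIP, against the mean CPM of both lines (log axis) for the 10728 genes tested. Genes past the threshold are coloured, 19 above and 14 below 0; the outer diagonals of points are genes with 0 reads in one line, whose fitted value is no measured size.

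Transcription factors of the medial lineage held 2 of the genes that ranked highest. Lhx6, the LIM homeodomain factor downstream of Nkx2-1 (chr2:36081953-36105408, mm10), was at 881, 1679.7 and 1770.2 CPM in Nkx2.1 replicates 1 to 3, and the VIP line held 2 reads in all, both in replicate 1. The ratio of pooled reads was 22496 (95% exact counting interval 6227 to 185763), with edgeR adjusted p = 0.000438. Mef2c, a MADS-box factor of activity-dependent neuronal maturation (chr13:83504034-83667080), was at 6253, 10642 and 6181 CPM against 479, 752 and 684 CPM. Its mean levels were 7692 ± 2555 CPM (SD, n = 3) in the Nkx2.1 line and 638 ± 142 CPM (SD, n = 3) in the VIP line, 12-fold apart (log2 3.59 ± 0.29, SE, edgeR adjusted p = 0.000532). Both genes stayed past the threshold whichever library was left out. Nkx2-1 itself, whose promoter drives the recombinase, had 12, 10 and 1 reads in Nkx2.1 replicates 1 to 3 and none in the VIP libraries, too few to be tested. Sox6, a factor that acts after Lhx6, was at 112, 382 and 495 CPM against 45.6, 0 and 0 CPM and missed the threshold (log2 4.44 ± 2.00, SE, edgeR adjusted p = 0.329). Maf was at 75.8, 330.2 and 312 CPM against 423, 572 and 206 CPM, with the libraries overlapping (edgeR adjusted p = 0.672). Of the 9 listed medial lineage factors 7 were tested, 2 were called higher, beside 0.177% of all genes tested, and none lower. The Nkx2.1 libraries lay above in 3 of the 7, beside 7.31% of all genes tested. The median log2 was 2.16 beside 0.0028 for all genes.

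Caudal lineage factors lay on the other side. Prox1, the homeodomain factor that keeps caudal interneurons on course (chr1:190118035-190170714), was at 368, 408 and 690.5 CPM in the VIP libraries and had 0 reads in all 3 Nkx2.1 libraries, at least 5578-fold lower against a floor of 3 reads over the group (edgeR adjusted p = 0.0316). Npas1, a basic helix-loop-helix factor (chr7:16455721-16477728), was at 0.908, 0 and 2.15 CPM against 487, 544 and 597 CPM (log2 -9.03 ± 1.39, SE, edgeR adjusted p = 0.0325). Both groups were far apart in each gene, yet Prox1 missed the threshold when any 1 VIP library was left out (highest adjusted p 0.137, edgeR) and Npas1 when most single libraries were. Nr2f2, an orphan nuclear receptor of the caudal lineage, was at 1.02, 0 and 0 CPM against 337, 101 and 109 CPM and was not called (log2 -9.08 ± 1.84, SE, edgeR adjusted p = 0.095). Npas3 was at 14.3, 126 and 66.3 CPM against 364, 425 and 523 CPM (edgeR adjusted p = 0.217). All 8 genes listed as caudal factors were tested, 2 were called lower, beside 0.13% of all genes tested, and none higher. The VIP libraries lay above in 7, beside 12.8% of all genes tested. The listed gene left over, named after its values were seen, was Sp9, with 14.4, 39.7 and 13.8 CPM in the Nkx2.1 line and 0, 0 and 0.164 CPM in the VIP libraries (edgeR adjusted p = 0.198). Prox1, with 0, 0 and 6 reads in the SOM libraries, passed the filter only through the VIP libraries, which set its separation. The median log2 was -9.05, between Npas1 and Nr2f2, both near 0 reads in the Nkx2.1 line. With 3 of the 8 at 0 reads in 1 line, this median is no measured size.

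The genes that name the cell classes gave large ratios that edgeR did not call. Vip, the neuropeptide of the second line, was at 410.3, 799 and 692 CPM in its own libraries and at 3.52, 0 and 0 CPM in the Nkx2.1 libraries. Its log2 was -9.10 ± 2.26 (SE), with edgeR adjusted p = 0.148, and DESeq2 called it (adjusted p = 9.41e-05). Sst, the peptide of somatostatin cells, was at 36.1, 0 and 16.6 CPM in the Nkx2.1 line and had 1 read in the VIP line (edgeR adjusted p = 0.133). Synpr, a synaptic vesicle protein, was at 20.7, 0 and 0 CPM against 2396, 1966 and 2500.4 CPM (log2 -8.38, edgeR adjusted p = 0.151). Cnr1, the cannabinoid receptor, was at 473, 365 and 63.5 CPM against 1456, 2055 and 2787 CPM (log2 -2.80 ± 0.67, SE, edgeR adjusted p = 0.141). In both genes every VIP library was above every Nkx2.1 library. Adarb2, an RNA-binding protein of caudal interneurons, was at 209, 10.7 and 11.7 CPM against 1183, 1270.3 and 2971 CPM, and Nkx2.1 replicate 1 was the high one of its line (edgeR adjusted p = 0.231). Calb2, the calcium buffer calretinin, was at 41.6, 62.9 and 53.1 CPM against 1278, 1057 and 600.0 CPM (log2 -4.22 ± 0.93, SE, edgeR adjusted p = 0.125). Of 18 listed VIP and caudal interneuron genes 12 were tested and none was called, beside 0.308% of all genes tested. The VIP libraries lay above in 10 of them, beside 12.8% of all genes tested, and the median log2 was -6.57. Members such as Vip and Synpr had 0 reads in Nkx2.1 replicates 2 and 3, so the size of this median is not firm. Cck and Htr3a, both on the minus strand of chromosome 9, had 0 reads in all 9 libraries, as had 486 of the 522 protein-coding genes there, so their zeros say nothing about expression.

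No gene of GABA handling was called. Gad1, which makes GABA, was at 965, 1877 and 918 CPM against 1943, 959 and 1499.5 CPM, and Gad2 at 309.6, 465 and 271 CPM against 471, 275 and 182 CPM. Neither passed the test (log2 -0.23 ± 0.35, SE, edgeR adjusted p = 0.859 for Gad1; log2 0.17 ± 0.46, SE, edgeR adjusted p = 0.927 for Gad2), and the sign of each turned under other settings. Slc32a1, the vesicular GABA transporter, was at 0.908, 4.32 and 8.36 CPM against 54, 65.6 and 77.5 CPM, every VIP library above (log2 -3.85 ± 1.42, SE, edgeR adjusted p = 0.248). The 12 tested GABAergic genes gave no call and a median log2 of 0.049.

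Among listed chandelier cell genes only Hapln1 was called. Hapln1, the link protein that ties hyaluronan to proteoglycans in perineuronal matrix, was at 459.7, 634 and 564 CPM against 17.4, 38.2 and 64.1 CPM, 13.8-fold apart (log2 3.79 ± 0.64, SE, edgeR adjusted p = 0.0474), and lost its call when any 1 of the 9 libraries was left out. Erbb4, the neuregulin receptor, was at 2024, 2607 and 1345 CPM against 363, 214 and 1035 CPM (log2 1.89 ± 0.56, SE, edgeR adjusted p = 0.186). Fgf13, which binds sodium channels, was at 778, 669 and 617 CPM against 263, 606 and 290.4 CPM (log2 0.83 ± 0.42, SE, edgeR adjusted p = 0.392). Both lay higher in every Nkx2.1 library but missed the threshold. Unc5b, a netrin receptor, was at 219, 0.169 and 0.58 CPM against 0, 3.41 and 0.41 CPM (edgeR adjusted p = 0.457), and its log2 of 5.83 turned to -1.70 without Nkx2.1 replicate 1. Gldn, encoding gliomedin of the study's title, was at 178, 0 and 0 CPM in the Nkx2.1 line and had 0 reads in the VIP libraries, and it was not tested. Its reads came from replicate 1 alone. Nfasc, encoding neurofascin, the partner of gliomedin on the axon initial segment, was at 152, 2.71 and 285 CPM against 369, 148 and 188 CPM (log2 -0.68 ± 1.08, SE, edgeR adjusted p = 0.863), with 1 low Nkx2.1 library. Ank3, the ankyrin that anchors that segment, was at 1083, 1121 and 1598 CPM against 552, 142 and 864 CPM (log2 1.29 ± 0.55, SE, edgeR adjusted p = 0.305). Of 12 listed chandelier genes 6 were tested and 1 was called higher, beside 0.177% of all genes tested. The median log2 was 2.84, and 1.34 without Nkx2.1 replicate 1. Of 18 tested axon initial segment and node genes none was called, beside 0.308% of all genes tested, with a median of 0.83.

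Ligands of neurexins, the presynaptic adhesion receptors, were split between the lines. Nxph1, a secreted neurexophilin (chr6:8948431-9249032), was at 945, 1066 and 1585 CPM in the Nkx2.1 line and had 0 reads in every VIP library, at least 12267-fold higher (edgeR adjusted p = 7.29e-05). Nxph2, its relative, was at 202, 184 and 338 CPM against 0 reads, at least 2463-fold higher (edgeR adjusted p = 0.0098). Cbln2, a secreted cerebellin that joins neurexins to delta glutamate receptors, was at 0.114, 0 and 0.414 CPM in the Nkx2.1 line and 382, 1016 and 582 CPM in the VIP libraries (log2 -11.75 ± 1.28, SE, edgeR adjusted p = 0.0045). These 3 genes stayed past the threshold without any 1 library. Nxph2 was not called with only the 6 Nkx2.1 and VIP libraries, nor with a replicate block. Of 18 tested neurexins and ligands 2 were called higher and 1 lower, beside 0.177% and 0.13% of all genes tested. The median log2 was -0.32.

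Other adhesion genes were called in 1 direction. Cntnap3, a contactin-associated protein (chr13:64736182-64903955), was at 645, 783 and 282 CPM in the Nkx2.1 line and had 1 read in the VIP line, a pooled ratio of 16851 (95% exact counting interval 3024 to 665617; edgeR adjusted p = 0.000628). Opcml, a cell-surface IgLON, was at 935, 981 and 706 CPM against 79.9, 144 and 119 CPM (log2 2.93 ± 0.37, SE, edgeR adjusted p = 0.0098). Tenm2, a teneurin that binds latrophilins across the synapse, was at 2492, 1495 and 939 CPM against 194, 109 and 248 CPM (log2 3.16 ± 0.47, SE, edgeR adjusted p = 0.0295). In each the lowest Nkx2.1 library was above the highest VIP library. Cntnap2 was at 424, 1819.8 and 185 CPM against 247, 244 and 336 CPM (log2 1.55 ± 0.69, SE, edgeR adjusted p = 0.324), and Negr1, another IgLON, at 617, 1300.4 and 1048 CPM against 374, 47.3 and 415 CPM (log2 1.83 ± 0.68, SE, edgeR adjusted p = 0.257). Of 12 tested contactins and contactin-associated proteins 1 was called higher, and of 14 IgLONs, teneurins and latrophilins 2. Of 24 cadherins and protocadherins none was, and 0.177% of all genes tested were called higher. The median log2 values of these lists were 1.20, 1.75 and 0.60 in that order. Secreted matrix genes were called both ways. Thbs1, a thrombospondin, was at 429, 373 and 459 CPM against 0 reads in the VIP line, at least 4202-fold higher (edgeR adjusted p = 0.0171). Fbln2, a fibulin, had 0 reads in the Nkx2.1 line and was at 413, 69.6 and 164 CPM in the VIP libraries, at least 2191-fold lower (edgeR adjusted p = 0.0474). Of 17 tested matrix genes 2 were higher and 1 lower, beside 0.177% and 0.13% of all genes tested, with a median of 1.61.

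**Figure D3:**
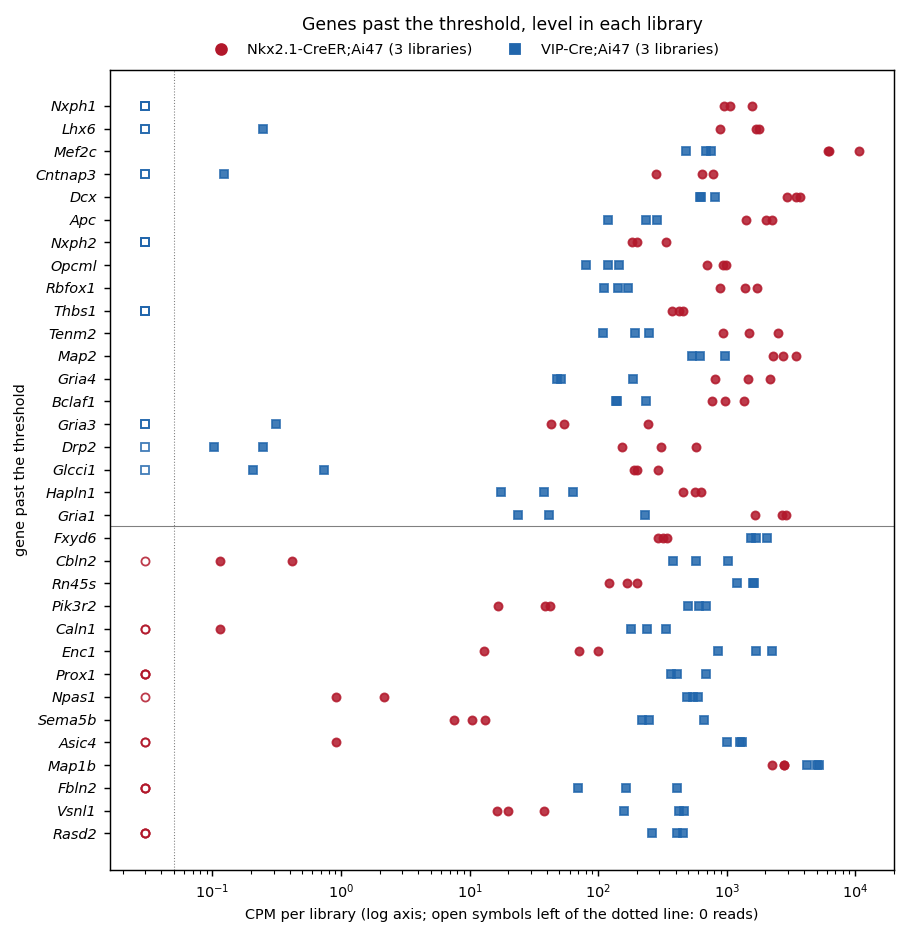
CPM (log axis) of the 33 genes past the threshold in each Nkx2.1 library (circles) and VIP library (squares), open symbols marking 0 reads. The 19 genes above the line were higher and the 14 below it lower in the Nkx2.1 line, with no overlap of libraries in any row.

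AMPA receptor subunits, which form the fast glutamate receptor, gave 3 calls, all higher. Gria1 was at 2697, 1648 and 2890.3 CPM against 41.8, 23.9 and 231 CPM (log2 4.61 ± 0.79, SE, edgeR adjusted p = 0.0486). Gria4 was at 2173, 1475 and 818 CPM against 51, 186 and 48.1 CPM (log2 3.97 ± 0.62, SE, edgeR adjusted p = 0.0377), and Gria3 at 43.4, 243 and 54.5 CPM with 3 reads in the VIP line, a pooled ratio of 1196 (95% exact counting interval 409 to 5804; edgeR adjusted p = 0.0436). Gria2, the subunit that limits calcium entry, was at 581, 253 and 447 CPM against 599, 515 and 695 CPM and the libraries overlapped (log2 -0.50 ± 0.40, SE, edgeR adjusted p = 0.668). Each of the 3 calls was lost when most single libraries were left out (highest adjusted p 0.187 for Gria1, 0.15 for Gria4 and 0.159 for Gria3, edgeR). Cacng3, an auxiliary subunit, was at 179, 321 and 284 CPM against 0, 23 and 10.3 CPM (log2 4.55 ± 1.34, SE, edgeR adjusted p = 0.186). The 14 tested subunits and auxiliaries held the 3 calls, beside 0.177% of all genes tested called higher. The median log2 over the 14 was -2.31, opposite in sign to the 3 calls. The 17 tested NMDA, kainate and metabotropic genes gave no call (median 0.99), among them Grm5 at 997, 656 and 649 CPM against 217, 295 and 145 CPM (edgeR adjusted p = 0.156). Likewise 11 GABA-A subunits gave none (median 0.12), among them Gabrg3 at 1066, 693 and 479.9 CPM against 76.2, 64.1 and 74.7 CPM (edgeR adjusted p = 0.17). The 35 potassium and HCN channel genes gave none (median 0.15), among them Kcnd2 at 511, 892 and 266 CPM against 6.5, 51 and 139 CPM (edgeR adjusted p = 0.184) and its partner Dpp10 at 932, 626 and 721 CPM against 178, 20.2 and 178 CPM (edgeR adjusted p = 0.179).

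Microtubule regulators were called both ways. Dcx, doublecortin of migrating neurons, was at 3441, 3718 and 2969 CPM against 620.4, 634 and 806 CPM (log2 2.30 ± 0.23, SE, edgeR adjusted p = 0.00306). Apc, which binds microtubule ends, was at 1406, 2239.7 and 2028 CPM against 119.7, 234 and 285 CPM (log2 3.15 ± 0.38, SE, edgeR adjusted p = 0.00923), and Map2, of dendrites, at 3443, 2276 and 2753 CPM against 973, 622 and 534 CPM (log2 1.99 ± 0.30, SE, edgeR adjusted p = 0.0316). Map1b, abundant in growing axons, was lower, at 2265, 2809 and 2792 CPM against 5241, 5084 and 4251 CPM (log2 -0.89 ± 0.15, SE, edgeR adjusted p = 0.0456), the smallest difference of the 33. Dcx and Apc passed without any 1 library but not after a correction for GC content and length, and Map1b passed in none of those 9 fits. Of 33 tested microtubule and growth cone genes 3 were higher and 1 lower (median -0.10), beside 0.177% and 0.13% of all genes tested. Other higher genes were Rbfox1, a neuronal splicing factor, at 1395, 888 and 1715 CPM against 110.2, 170.3 and 142 CPM (log2 3.24 ± 0.43, SE, edgeR adjusted p = 0.0126), and Bclaf1, a nuclear protein, at 1362, 769 and 976 CPM against 138, 237 and 140.1 CPM (log2 2.59 ± 0.41, SE, edgeR adjusted p = 0.0411). Drp2, related to dystrophin, was at 309, 580.4 and 154 CPM against 0, 0.103 and 0.246 CPM (log2 11.31 ± 1.86, SE, edgeR adjusted p = 0.0436), and Glcci1 at 199, 290.1 and 189 CPM against 0, 0.207 and 0.738 CPM (log2 9.39 ± 1.55, SE, edgeR adjusted p = 0.0436). Both had almost no reads in the VIP line.

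The genes that were lower in the Nkx2.1 line included regulators of ion transport and calcium sensors. Fxyd6, a regulator of the sodium pump, was at 340.4, 322 and 290.2 CPM against 2062, 1544 and 1688 CPM, 5.56-fold lower (log2 -2.47 ± 0.26, SE, edgeR adjusted p = 0.00361). Asic4, of the acid-sensing channel family, was at 0.908, 0 and 0 CPM against 1309, 1005 and 1265 CPM (log2 -12.00 ± 1.98, SE, edgeR adjusted p = 0.0436). These were the 2 calls among 11 tested sodium pump, Fxyd and acid-sensing channel genes (median -1.25), beside 0.13% of all genes tested called lower. Caln1, the calcium-binding calneuron, had 1 read in the Nkx2.1 line and was at 339.6, 182 and 241 CPM in the VIP libraries, 8136-fold lower by pooled reads (95% exact counting interval 1459.8 to 321388; edgeR adjusted p = 0.0126). Vsnl1, the calcium sensor visinin-like 1, was at 38, 20 and 16.5 CPM against 158, 427 and 467 CPM (log2 -3.82 ± 0.65, SE, edgeR adjusted p = 0.0474). They were the 2 calls among 28 tested calcium genes (median -0.12), beside 0.13% of all genes tested called lower. Sema5b, a semaphorin of axon guidance, was at 13.3, 7.62 and 10.4 CPM against 662, 251 and 218 CPM (log2 -5.18 ± 0.83, SE, edgeR adjusted p = 0.0411). It was the 1 call among 46 tested guidance genes (median 0.016), beside 0.13% of all genes tested called lower. Enc1, an actin-associated kelch protein, was at 13.1, 99.3 and 71.1 CPM against 852, 2265 and 1704 CPM (log2 -4.72 ± 0.71, SE, edgeR adjusted p = 0.0316). Pik3r2, a regulatory subunit of PI3-kinase, was at 16.6, 38.3 and 42 CPM against 691, 500.5 and 611 CPM (log2 -4.22 ± 0.53, SE, edgeR adjusted p = 0.0098), and Rasd2, a small GTPase, had 0 reads against 461, 408 and 264 CPM, at least 3964-fold lower (edgeR adjusted p = 0.0486). Rn45s, the ribosomal RNA precursor, was at 201, 169 and 121 CPM against 1637, 1210.2 and 1612 CPM (log2 -3.18 ± 0.40, SE, edgeR adjusted p = 0.0098).

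**Figure D4:**
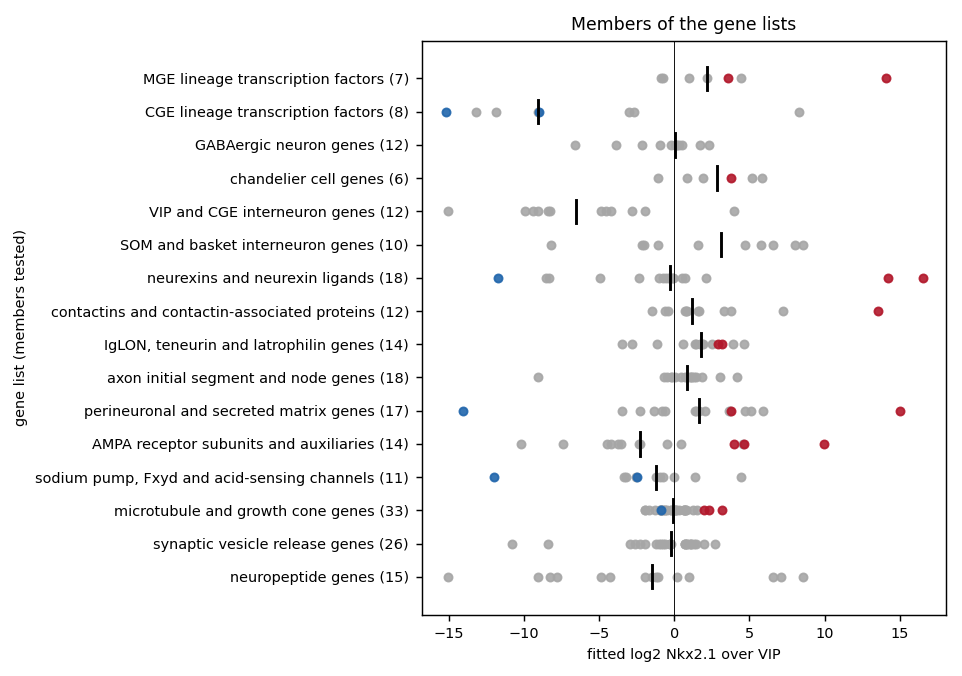
Fitted log2 Nkx2.1 over VIP of every tested member of 16 gene lists (points; red called higher, blue called lower, grey not called) with each list's median (bar). Medial factors had a median of 2.16 and caudal factors of -9.05; the outermost points are genes with few or 0 reads in one line.

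The next genes in rank missed the threshold. Id2, an inhibitor of helix-loop-helix factors, was at 903, 669.5 and 512 CPM against 47.4, 27.3 and 55 CPM (log2 4.01 ± 0.69, SE, edgeR adjusted p = 0.0503), and Nrep, a neuronal regeneration protein, at 5699, 6573 and 5192 CPM against 3272, 2288 and 2413 CPM (log2 1.13 ± 0.20, SE, edgeR adjusted p = 0.0503). Ank2, the ankyrin of the distal axon, was at 1038, 805 and 785 CPM against 251, 206 and 296 CPM (log2 1.80 ± 0.33, SE, edgeR adjusted p = 0.0675). Malat1, a nuclear noncoding RNA, was at 5400.5, 4979.7 and 4132 CPM against 2207, 817 and 1627 CPM (log2 1.64 ± 0.32, SE, edgeR adjusted p = 0.0871). These genes were taken from those whose libraries do not overlap, so their separation was set by the choice. On the other side, Igf1, insulin-like growth factor, was at 2.95, 0 and 0 CPM against 283, 721 and 988 CPM (log2 -9.43 ± 1.85, SE, edgeR adjusted p = 0.0896). Tac2, encoding neurokinin B, had 0 reads against 431, 344 and 514 CPM, at least 4761-fold lower (edgeR adjusted p = 0.0834), and Kcnt2, a sodium-activated potassium channel, was at 0.341, 0.254 and 0.0828 CPM against 101, 126 and 131 CPM (log2 -8.98 ± 1.62, SE, edgeR adjusted p = 0.0667). Vamp2, the vesicle SNARE, was at 129, 80.9 and 122 CPM against 1001, 996 and 588 CPM (log2 -2.96 ± 0.57, SE, edgeR adjusted p = 0.0871), while Snap25, a listed gene and its partner on the plasma membrane, was at 1673, 1995 and 1624 CPM against 1105, 802 and 668 CPM (log2 1.04 ± 0.26, SE, edgeR adjusted p = 0.156). So these 2 release genes lay on opposite sides, and of 26 tested vesicle release genes none was called (median -0.24). Among other listed genes, Fos, an immediate early gene, was at 688, 1215 and 633 CPM against 137, 29 and 333 CPM (log2 2.35 ± 0.86, SE, edgeR adjusted p = 0.248), and none of 14 tested early and stress genes was called (median 1.79). Reln, the secreted protein reelin, was at 1024, 5.33 and 0.663 CPM against 0.491, 2.27 and 37.5 CPM (log2 4.67 ± 2.20, SE, edgeR adjusted p = 0.353), and its log2 was -2.12 without Nkx2.1 replicate 1. Calb1, the calcium buffer calbindin, was at 176, 249 and 712 CPM against 0, 20.9 and 0 CPM (edgeR adjusted p = 0.236). None of 15 tested neuropeptide genes was called (median -1.52).

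Promoters of the called genes were searched for 3 motifs, each its own reverse complement and so read on both strands: TAATTA, a core that LIM homeodomain factors bind, the AP-1 form TGANTCA, and a MEF2 form. RefSeq promoters on GRCm38.p6, from 250 bases before to 50 after a start site, matched 14 of the 19 higher and 10 of the 14 lower genes. The core stood in 3 of the 14 (Dcx, Hapln1 and Mef2c) and 0 of the 10, beside 5.29% of all promoters, 6.12% of all genes with one and 2.96% of genes tested. TGANTCA stood in 2 of the 14 (Lhx6 and Mef2c) and 0 of the 10, beside 7.81% of all promoters and 5.7% of genes tested. The MEF2 form stood in 0 of the 14 and 0 of the 10, beside 3.69% of all promoters. The 3 promoters with TAATTA are shown, the core in capitals, because these genes were called together; this motif was chosen for display with the matches known, and a match is no evidence of binding.

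Dcx (chrX:143933075-143933374, minus strand, 1 of 2 starts): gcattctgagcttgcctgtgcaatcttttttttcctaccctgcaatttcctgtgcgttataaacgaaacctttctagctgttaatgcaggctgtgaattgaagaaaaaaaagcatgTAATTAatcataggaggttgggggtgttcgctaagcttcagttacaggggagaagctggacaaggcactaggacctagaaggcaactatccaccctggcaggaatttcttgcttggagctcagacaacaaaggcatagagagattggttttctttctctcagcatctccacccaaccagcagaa
Hapln1 (chr13:89540386-89540685, plus strand): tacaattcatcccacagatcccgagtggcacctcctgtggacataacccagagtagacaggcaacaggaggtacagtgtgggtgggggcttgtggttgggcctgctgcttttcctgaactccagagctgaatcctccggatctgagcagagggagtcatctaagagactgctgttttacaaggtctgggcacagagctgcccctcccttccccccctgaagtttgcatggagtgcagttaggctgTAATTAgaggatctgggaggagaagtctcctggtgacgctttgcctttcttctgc
Mef2c (chr13:83523406-83523705, plus strand, 1 of 3 starts): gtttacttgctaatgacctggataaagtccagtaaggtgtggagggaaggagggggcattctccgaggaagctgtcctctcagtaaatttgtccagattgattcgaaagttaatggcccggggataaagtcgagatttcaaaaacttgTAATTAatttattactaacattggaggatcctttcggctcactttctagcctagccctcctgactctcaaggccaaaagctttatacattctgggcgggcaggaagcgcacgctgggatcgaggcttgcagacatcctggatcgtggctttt

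Relative to the start site of the promoter shown, the core began at base -134 in Dcx, -5 in Hapln1 and -102 in Mef2c. The other annotated start of Dcx has the same core at base -39.

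The difference between the lines moved with the composition of transcripts. The 19 higher genes had a median longest coding transcript (GENCODE annotation of mm10) of 5848 bases with 44.3% GC, and the 13 lower genes with a value (Rn45s had none) 3165 bases with 55.6% GC, beside 3292 bases and 49.985% GC for genes tested. Over 4 equal groups of genes by GC content the median log2 was 0.56, 0.24, -0.0058 and -0.85 from lowest to highest. The group lowest in GC took 36.7%, 36.7% and 33.6% of reads in the Nkx2.1 libraries and 27.2%, 26.9% and 28.1% in the VIP libraries, and the highest group 15.6%, 15.2% and 18.5% against 25.4%, 26.5% and 25.3%. The lines did not overlap in either share. Of the 19 higher genes 15 lay in the group of 4 with the longest transcripts. The line and this shift in composition cannot be told apart here. After a correction of each library for GC content and length, added after this trend was seen, 11 genes were higher and 4 lower, and 9 and 5 with the correction centred in each library. Lhx6, Nxph1, Nxph2, Mef2c, Cntnap3, Rbfox1, Thbs1, Cbln2, Caln1 and Prox1 were called with both corrections, and among the genes called with neither were Dcx, Apc, Fxyd6, Opcml and Pik3r2.

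**Figure D5:**
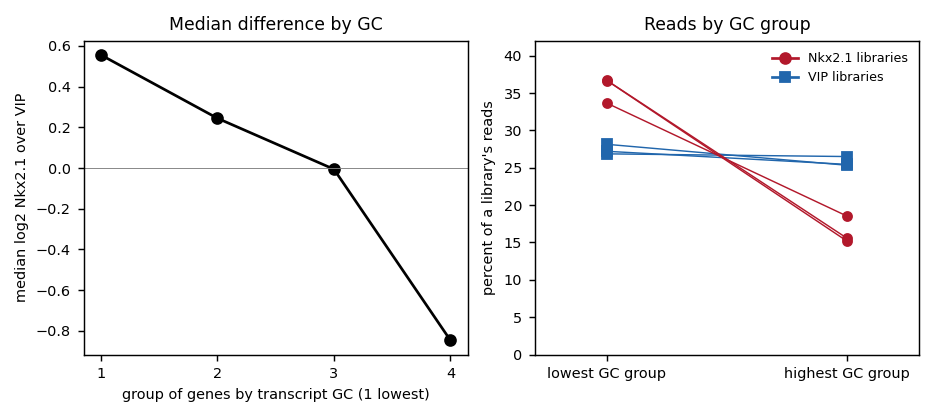
Left, median fitted log2 Nkx2.1 over VIP in 4 equal groups of genes by transcript GC content, falling from 0.56 to -0.85. Right, percent of a library's reads in the lowest and highest group, with the 3 Nkx2.1 libraries (circles) above the 3 VIP libraries (squares) in the lowest and below them in the highest.

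Of the 33 calls, 10 held in all 9 fits that each left out 1 library: Nxph1, Lhx6, Mef2c, Cntnap3, Dcx, Apc, Nxph2, Fxyd6, Cbln2 and Rn45s. The counts of higher and lower genes were 12 and 36 without Nkx2.1 replicate 1, 15 and 9 without Nkx2.1 replicate 2, 18 and 27 without Nkx2.1 replicate 3, 11 and 5 without VIP replicate 1, 17 and 5 without VIP replicate 2. They were 9 and 3 without VIP replicate 3, 14 and 10 without SOM replicate 1, 12 and 9 without SOM replicate 2, 12 and 7 without SOM replicate 3. Fbln2, Glcci1, Hapln1, Map1b and Sema5b were lost in every one of the 9 fits. Leaving out Nkx2.1 replicate 1 also ended the calls of Bclaf1, Drp2, Gria1, Gria4, Map2, Npas1 and Rasd2. The calls of Asic4, Drp2, Gria1, Gria3, Gria4, Rasd2, Tenm2 and Vsnl1 were further lost without Nkx2.1 replicate 2. Leaving out Nkx2.1 replicate 3 also ended the calls of Asic4, Bclaf1, Enc1, Gria1, Rasd2 and Vsnl1. The calls of Asic4, Bclaf1, Caln1, Drp2, Gria1, Gria3, Gria4, Npas1, Prox1, Rasd2, Rbfox1, Tenm2, Thbs1 and Vsnl1 were further lost without VIP replicate 1. Leaving out VIP replicate 2 also ended the calls of Asic4, Bclaf1, Drp2, Enc1, Gria1, Gria3, Map2, Npas1, Prox1, Rasd2, Tenm2 and Vsnl1. The calls of Asic4, Bclaf1, Caln1, Drp2, Enc1, Gria3, Gria4, Map2, Npas1, Opcml, Pik3r2, Prox1, Rasd2, Rbfox1, Tenm2, Thbs1 and Vsnl1 were further lost without VIP replicate 3. Leaving out SOM replicate 1 also ended the calls of Bclaf1, Enc1, Gria1, Gria3, Gria4, Npas1, Rasd2 and Vsnl1. The calls of Asic4, Bclaf1, Drp2, Enc1, Gria1, Gria3, Gria4, Npas1 and Vsnl1 were further lost without SOM replicate 2. Leaving out SOM replicate 3 also ended the calls of Bclaf1, Drp2, Enc1, Gria1, Gria3, Gria4, Map2, Npas1, Rasd2 and Vsnl1.

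List medians also moved when 1 of the 9 libraries was left out. In 7 of the lists with a median given above, the median log2 changed sign with the library left out. The median ran for GABAergic genes from -0.54 (without Nkx2.1 replicate 2) to 0.21 (without Nkx2.1 replicate 1) and for matrix genes down to -0.33 (without Nkx2.1 replicate 1). It ran for guidance genes from -0.52 (without Nkx2.1 replicate 1) to 0.49 (without Nkx2.1 replicate 2) and for GABA-A subunits from -0.50 (without Nkx2.1 replicate 2) to 0.37 (without VIP replicate 1). It ran for potassium and HCN channels from -0.33 (without Nkx2.1 replicate 2) to 0.65 (without VIP replicate 3) and for microtubule and growth cone genes from -0.18 (without VIP replicate 3) to 0.069 (without Nkx2.1 replicate 2). It ran for vesicle release genes from -0.31 (without Nkx2.1 replicate 1) to 0.036 (without VIP replicate 2). Lists with no median printed above changed sign too. SOM and basket interneuron genes ran from -1.89 (without Nkx2.1 replicate 1) to 5.57 (without VIP replicate 3). Growth factor genes ran from -1.06 (without Nkx2.1 replicate 1) to 0.23 (without VIP replicate 1). Neuromodulator receptors ran from -0.26 (without VIP replicate 1) to 1.83 (without VIP replicate 2). Nuclear noncoding RNAs ran from -0.54 (without Nkx2.1 replicate 2) to 0.57 (without VIP replicate 1). Excitatory neuron markers ran from -1.04 (without Nkx2.1 replicate 1) to 0.55 (without Nkx2.1 replicate 2). In the chandelier list, given above, and 11 others with a median printed above, the median kept its sign and moved by more than 1.5 times. The median ran for medial lineage factors from 1.25 (without Nkx2.1 replicate 2) to 2.75 (without VIP replicate 2) and for VIP and caudal interneuron genes from -14.04 (without Nkx2.1 replicate 1) to -5.98 (without Nkx2.1 replicate 3). The -14.04 is no measured size: genes such as Vip, Synpr and Igf1 then had 0 reads left in the Nkx2.1 line. For neurexins and the lists after them the ranges were as follows. The median ran for neurexins and ligands from -0.69 (without Nkx2.1 replicate 3) to -0.11 (without VIP replicate 1) and for IgLONs, teneurins and latrophilins from 0.81 (without Nkx2.1 replicate 1) to 2.28 (without VIP replicate 3). It ran for cadherins and protocadherins from 0.60 (without SOM replicate 2) to 1.06 (without VIP replicate 2) and for AMPA genes from -3.72 (without Nkx2.1 replicate 3) to -1.64 (without VIP replicate 1). It ran for NMDA, kainate and metabotropic genes from 0.33 (without Nkx2.1 replicate 1) to 1.47 (without VIP replicate 3) and for calcium genes from -0.68 (without Nkx2.1 replicate 3) to -0.12 (without SOM replicate 1). It ran for sodium pump, Fxyd and acid-sensing channel genes from -2.50 (without Nkx2.1 replicate 1) to -0.93 (without VIP replicate 3) and for neuropeptides from -3.70 (without Nkx2.1 replicate 2) to -1.52 (without SOM replicate 2). It ran for early and stress genes from 0.56 (without Nkx2.1 replicate 3) to 2.12 (without VIP replicate 3). Lists with no median printed above also moved so. Without Nkx2.1 replicate 1, other developmental regulators fell from 0.70 to 0.33 and astrocyte markers from 3.65 to 1.88. Oligodendrocyte lineage markers fell from 5.46 to 3.31 in that fit. Cell division genes ran from 0 (without Nkx2.1 replicate 1) to 3.13 (without VIP replicate 1). Caudal lineage factors, whose median is printed above, moved by less than 1.5 times, from -10.40 (without Nkx2.1 replicate 1) to -8.47 (without Nkx2.1 replicate 2).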

How the data were processed

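RNA was sequenced from 6 libraries of 150 GFP+ cells each (3 per line). The authors deposited raw read counts per gene; reads were aligned to mm10 with TopHat2 2.0.9, per the submitters' processing notes, which also name DESeq2. For the counting tool and its strand setting the record is: not given in the sources used here. Genes that overlap or have near copies are therefore uncertain. Rows that name no gene held 83.6% to 85.2% of a library's counted reads and were left out.

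Groups came from the genotype labels. The 9 libraries were fitted in R 4.3.3 with edgeR 4.0.16: TMM, filterByExpr (minimum count 10), quasi-likelihood test of Nkx2.1 against VIP, 6 residual degrees of freedom, Benjamini-Hochberg over 10728 genes, threshold 0.05. DESeq2 1.42.0 was an alternative. The SE given with a log2 is the absolute log2 divided by the square root of the F statistic. It therefore restates the test and is no separate measure of precision. Folds are ratios of mean CPM; where a group had 0 reads, 3 reads over the group gave a bound, and 1 to 3 reads a 95% exact counting interval, which covers counting error only. The scripts were tested on simulated data: with the spread fitted to these genes the test missed many of the genes that had been changed, so a missing call does not show equal levels.

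Named genes were those past the threshold, fixed anchor genes (Nkx2-1, Vip, Sst, Gad1, Gad2, Slc32a1, Gldn, Nfasc), the 4 most abundant tested members of each of 35 lists, and the 12 next-ranked per direction with at least 100 CPM and no overlap; not all are printed, and some are not reported here. Members and lists were chosen with earlier results of these data known. None of 26 mitochondrial symbols was in the tables; endothelial and erythrocyte markers had none tested. Alternatives were RLE scaling, no filter, 6 libraries only, a replicate block, single libraries left out, and a GC and length correction.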

Additional observations from a re-analysis of the deposited data

How the results depend on the processing

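The 19 higher and 14 lower genes became 462 and 800 with DESeq2, 10 and 10 with only the 6 Nkx2.1 and VIP libraries (9 and 7 of them among the 33), and 11 and 4 with the GC and length correction, or 9 and 5 with it centred in each library. With the 6 libraries alone the higher calls lost were Bclaf1, Glcci1, Gria1, Gria3, Gria4, Hapln1, Map2, Nxph2, Opcml and Tenm2. The lower calls lost were Enc1, Fbln2, Map1b, Npas1, Pik3r2, Sema5b and Vsnl1. The corrections were chosen after seeing the data; the uncentred one moved the median log2 of all genes to 0.76. RLE scaling (19 and 13) and no filter (23 and 17) moved the counts by less than 1.5 times. Leaving out 1 library gave 9 to 18 higher and 3 to 36 lower genes. The cause of these changes was not tested.

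With the sample number as a replicate block, 8 genes were higher and 3 lower, and the median of all genes was -0.32. Same-numbered libraries did not deviate together (correlations -0.033, -0.0043 and -0.011), so the number is no evidence of pairing.

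Signs turned only for genes that were not called. Gad1 had a log2 of 0.64 with the uncentred correction and from -0.64 (without Nkx2.1 replicate 2) to 0.081 (without VIP replicate 1) with 1 library left out. Gad2 was at -0.27 with the centred correction and from -0.0955 (without VIP replicate 3; -0.0871 without Nkx2.1 replicate 2) to 0.67 (without VIP replicate 1). Reln ran from -2.12 without Nkx2.1 replicate 1 to 7.93 without VIP replicate 3, and Unc5b from -1.70 without Nkx2.1 replicate 1 to 8.45 without VIP replicate 2. Depth limits what 0 reads can show: 3 reads were worth 0.246 to 0.368 CPM in these libraries. Detection of genes did not follow depth, as given above, and the bounds from 0 reads cover counting only.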
